A study of Mus musculus with 22 samples.

Results

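The TAM receptors are a family of receptor tyrosine kinases made up of Axl, Mertk and Tyro3. Their expression, and that of genes acting with them in the clearance of apoptotic cells, was examined in mouse spinal cord during aging and in a model of amyotrophic lateral sclerosis (ALS). The 10 genes were chosen by their known roles, as the receptors Axl, Mertk and Tyro3, the ligands Gas6 and Pros1, the recognition receptors Megf10 and Stab1, and the engulfment genes Gulp1, Elmo1 and Dock1. Their rows were taken from a table of 21995 genes, and all 10 were present.

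A dying cell exposes phosphatidylserine on its outer membrane. Gas6 and protein S, the product of Pros1, bridge this lipid to TAM receptors on a phagocyte, and the activated receptors promote engulfment and dampen innate immune signaling. In the central nervous system, TAM receptors are known from microglia, the resident macrophages, with Tyro3 found mainly in neurons, while Megf10 and Mertk also act in the phagocytosis of synapses by astrocytes.

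Whole spinal cord was sequenced from C57BL/6 mice as 1 library per sample. Young wild-type mice were 3–4 months old (n = 8) and old wild-type mice were 18–24 months old (n = 8), all males prepared with the Roche RNA KAPA HyperPrep kit. G93a mice, referred to as SOD1G93A, carry a high-copy human SOD1 transgene with the ALS mutation and were compared with wild-type controls, both at 5–6 months (n = 3 each) and prepared with Illumina TruSeq. Animals of both sexes were used in the latter groups, without a sex given for each library. The transgene is not limited to one cell type, which limits these animals as a model of changes in any single type. Because kit and experiment coincide, the kit and the difference between the experiments cannot be told apart.

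The libraries held 5078092 to 9358055 counts in young, 5664869 to 9145600 in old, 10693060 to 13219797 in control and 9675610 to 11872431 in SOD1G93A mice. Levels are given as CPM, counts scaled to the library size after TMM normalization, where 3 counts correspond to 0.32 to 0.582 CPM in the aging libraries and 0.231 to 0.302 CPM in the ALS libraries. Changes are log2 fold changes from edgeR's quasi-likelihood test, and a gene was called at a Benjamini-Hochberg adjusted p under 0.05 over all genes tested. Old library 6, numbered in the order of the table's columns, stood apart, with a median correlation of 0.9732 with the other old libraries where the others had 0.9804 to 0.9838, and with 15.1% of its counts in its 10 most abundant genes. Markers of the tissue were present. Summed levels were 24067 to 30299 CPM for 7 oligodendrocyte genes and 136 to 281 CPM for 6 motor neuron genes. The motor neuron genes summed to 136 to 151 CPM in SOD1G93A and 249 to 281 CPM in control mice. Of these genes, 4 of 6 were called lower in SOD1G93A mice.

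Per transcript length, Gas6 was the most abundant of the 10 genes in every group by its median, and the receptor ranking differed between groups. FPKM, a fragment count divided by transcript length and library size, is used for this order. In young mice Gas6 had a median level of 62.1 FPKM, followed by Elmo1 at 40.5, Axl at 29.6, Tyro3 at 23.5, Megf10 at 11.7, Dock1 at 9.03, Pros1 at 8.47, Mertk at 4.60, Stab1 at 2.89 and Gulp1 at 2.0 FPKM. Ranges of neighbors overlapped for Axl and Tyro3, for Dock1 and Pros1, for Mertk and Stab1, and for Stab1 and Gulp1. In old mice Axl at 40.4 FPKM was beside Elmo1 at 39.0 with overlapping ranges, and above Tyro3 at 20.4, whose range did not reach that of Axl. Pros1 followed Tyro3 at 14.3 FPKM, overlapping Tyro3 and Megf10.

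In control mice the order of the receptors was Tyro3 at 24.2, Axl at 17.3 and Mertk at 6.62 FPKM, with no overlap between them. In SOD1G93A mice it was Axl at 65.4, Tyro3 at 21.2 and Mertk at 13.8 FPKM, of which Tyro3 and Mertk overlapped. Gas6 at 87.3 FPKM overlapped with Axl in these mice, and Pros1 stood at 31.9 FPKM against 7.33 FPKM in controls.

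On GRCm38, Axl (ENSMUSG00000002602) lies at chr7:25757273-25788705 on the minus strand, Mertk (ENSMUSG00000014361) at chr2:128698956-128802894 and Pros1 (ENSMUSG00000022912) at chr16:62854307-62929346, both on the plus strand. Tyro3 (ENSMUSG00000027298) lies at chr2:119797733-119818104 on the plus strand, Gas6 (ENSMUSG00000031451) at chr8:13465374-13494490 and Stab1 (ENSMUSG00000042286) at chr14:31139013-31168641, both on the minus strand. Axl, Mertk and Pros1 are shown with the 250 bases before the transcription start from RefSeq (GRCm38.p6), read 5′ to 3′ on the gene's strand, as the TAM receptors and the ligand called in SOD1G93A mice, chosen with their values known. The windows are chr7:25788734-25788983 (minus strand), chr2:128698665-128698914 (plus strand) and chr16:62854057-62854306 (plus strand), and capitals mark matches to the motifs searched.
Axl: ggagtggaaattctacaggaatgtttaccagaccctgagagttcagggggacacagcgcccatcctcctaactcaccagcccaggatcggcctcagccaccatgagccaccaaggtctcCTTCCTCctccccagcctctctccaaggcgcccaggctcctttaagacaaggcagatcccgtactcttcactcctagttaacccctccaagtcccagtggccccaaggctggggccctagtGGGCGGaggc
Mertk: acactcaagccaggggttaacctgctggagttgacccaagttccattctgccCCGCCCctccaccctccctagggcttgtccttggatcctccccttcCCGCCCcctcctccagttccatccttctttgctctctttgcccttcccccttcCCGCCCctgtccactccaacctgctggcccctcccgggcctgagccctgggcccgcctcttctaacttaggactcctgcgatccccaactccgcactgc
Pros1: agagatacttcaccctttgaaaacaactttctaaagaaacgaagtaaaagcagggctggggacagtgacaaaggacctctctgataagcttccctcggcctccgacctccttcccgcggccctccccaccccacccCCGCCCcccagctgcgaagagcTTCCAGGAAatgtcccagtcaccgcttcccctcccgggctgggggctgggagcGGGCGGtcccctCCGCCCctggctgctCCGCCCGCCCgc

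The motifs were searched on both strands by their letters. The Sp1 box GGGCGG occurred 1 time before Axl, 3 times before Mertk and 5 times before Pros1, where 2 of the matches overlapped each other, and 32.7% of 32851 mouse promoters held it. It also occurred 3 times before Tyro3 and 4 times before Gas6, neither of which was called in ALS, and 0 times before Stab1, which was. GAGGAAG, a sequence read by ETS factors such as PU.1, occurred before Axl, 131 bases from the start, and in 10.6% of all promoters. TTCNNNGAA, the STAT element, occurred before Pros1, 92 bases from the start, and in 7.02% of promoters. The AP-1 element TGANTCA, held by 6.75% of promoters, was in none of the 3 windows. The same was so of the interferon response element (a pair of GAAA around 2 bases of any kind, in 2.98% of promoters), of the E-box CACGTG, found in 6.02% of them, and of the TATA box, whose letters TATAAA were found in 12.4%. The G and C content was 60.0% for Axl, 63.6% for Mertk and 64.4% for Pros1, against a median of 52.4%. CpG sites numbered 5, 7 and 15 in the same order, against a median of 6, and 24 before Tyro3.

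The plot of CPM by library shows these genes in all 22 libraries.

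**Figure D1:**
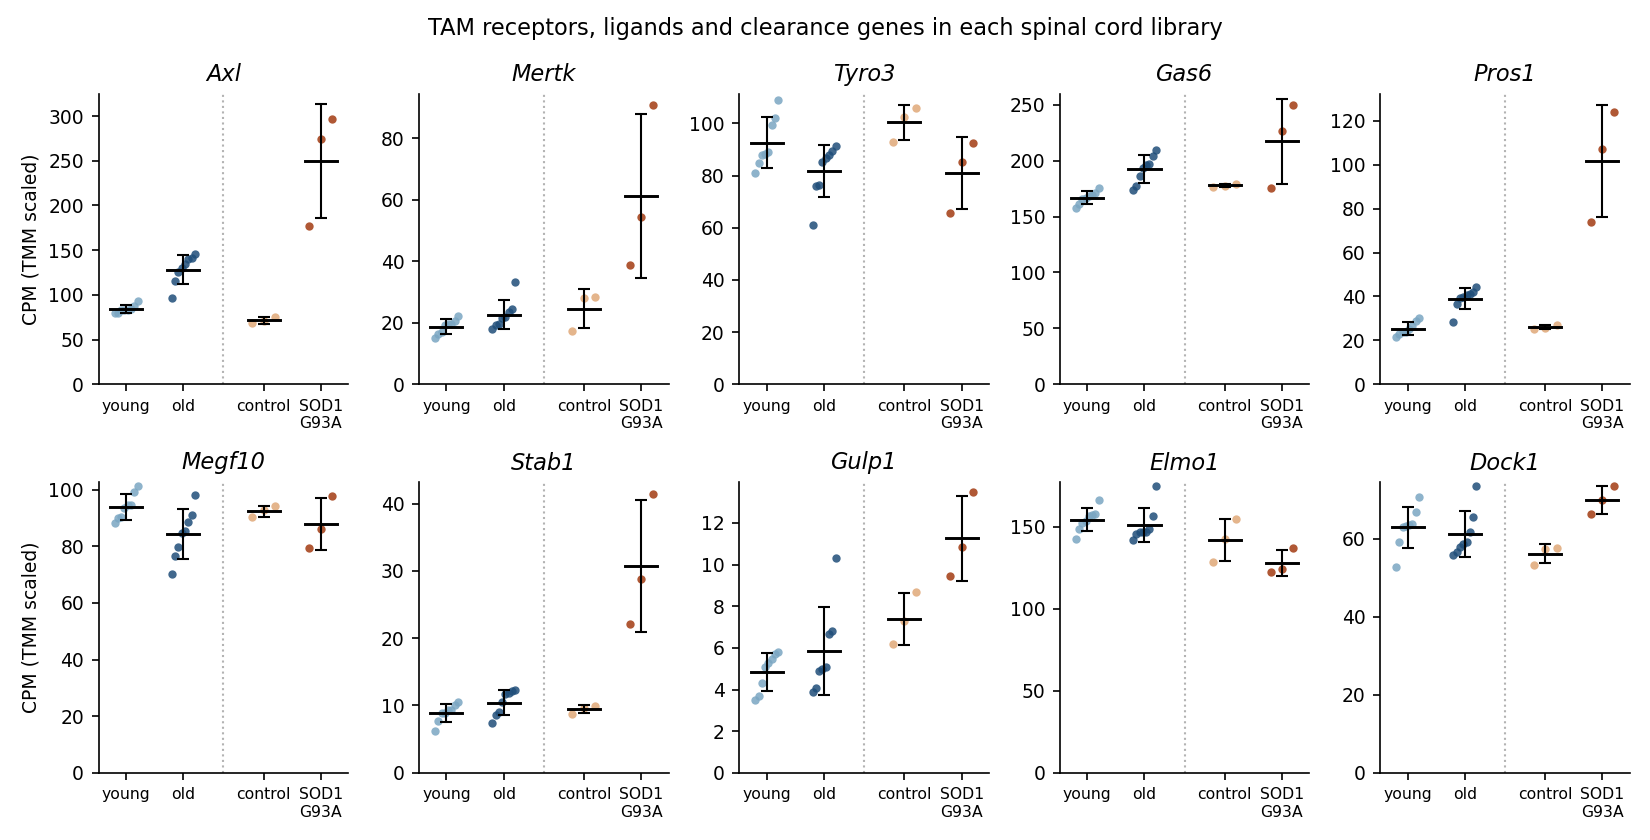
Level of each of the 10 genes in CPM (vertical axis, from 0, own scale per gene) in every library of the 4 groups (horizontal axis). Points are libraries, spread sideways by value, lines are means and bars are ± SD (n = 8 young, 8 old, 3 control, 3 SOD1G93A), and the dotted line separates the experiments. Axl and Pros1 lie higher in old and, by a wider gap, in SOD1G93A mice, with Axl at 177 to 296 CPM in the latter against 68.8 to 75.6 CPM in controls.

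The first comparison asked which of these genes change in normal aging. Axl, Gas6 and Pros1 rose in old mice and Megf10 fell, so 3 of 10 genes were called higher, beside 13.5% of the 13647 genes tested, and 1 of 10 lower, beside 12.9%. Their log2 fold changes had a median of 0.22, and those of all genes tested a median of -0.0027. None passed the study's threshold, which asks in addition for a log2 fold change beyond 1 and was passed by 2.18% of genes upward and 0.044% downward.

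Axl, the TAM receptor induced by inflammation in many phagocytes, was at 80.0, 82.8 and 93.5 CPM as the lowest, median and highest young library. In old mice the corresponding levels were 96.2, 132 and 145 CPM. Every old library was above every young one, which was so for 3.66% of genes tested (and 1.66% in the opposite direction). The means of 128 ± 16.2 and 84.3 ± 4.52 CPM (SD, n = 8) differed by 1.52-fold, a log2 fold change of 0.61 (SE 0.07, edgeR adjusted p = 2.54e-07).

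Mertk, the receptor best known for engulfment by macrophages and retinal pigment epithelium, had levels of 15.1, 19.5 and 22.3 CPM in young mice. Old mice had 17.9, 21.7 and 33.3 CPM, so the groups overlapped and 3 of 8 old libraries exceeded every young one. The log2 fold change of 0.28 (SE 0.11, 95% interval 0.06 to 0.51) was not called over all genes (edgeR adjusted p = 0.0593). It was called without old library 6 (0.32, adjusted p = 0.0219), and also without old library 5 (adjusted p = 0.0496), old library 8 (0.0477) or young library 2 (0.0410). Without old library 2, the highest, it was 0.17 (adjusted p = 0.152).

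Tyro3 had levels of 81.0, 88.7 and 109 CPM in young mice. In old mice it had 61.2, 85.9 and 91.3 CPM, and the groups overlapped. The log2 difference of -0.18 (SE 0.07, 95% interval -0.33 to -0.03) was not called (edgeR adjusted p = 0.0731), except without young library 2 (-0.21, adjusted p = 0.0439).

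Both ligands rose. Gas6, which binds all 3 receptors, had levels of 157, 167.5 and 175.5 CPM in young mice and 174, 195 and 209 CPM in old mice. In 7 of 8 old libraries it was above every young library, although the change was small at 1.15-fold (log2 0.20, SE 0.04, edgeR adjusted p = 8.62e-04). Pros1, whose product also serves as a cofactor in anticoagulation, had levels of 21.7, 24.4 and 30.1 CPM in young mice. Old mice had 28.5, 40.0 and 44.2 CPM of Pros1. Again 7 of 8 old libraries exceeded every young one, at 1.55-fold (log2 0.63, SE 0.08, edgeR adjusted p = 3.64e-06).

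Among the remaining genes, Megf10, a recognition receptor of astrocytes and muscle precursors, had levels of 88.2, 94.0 and 101 CPM in young mice. In old mice its levels were 70.4, 85.1 and 98.3 CPM, with 5 of 8 old libraries below every young one. The log2 fold change was -0.16 (SE 0.06, edgeR adjusted p = 0.0395), a call that was lost when any one of 9 of the 16 libraries was left out. Stab1, a scavenger receptor of macrophages and sinusoidal endothelium, had a log2 difference of 0.24 (adjusted p = 0.142), which passed the test without old library 6 (0.30, adjusted p = 0.0427). Gulp1, an adaptor for engulfment receptors, differed by 0.25 (95% interval -0.13 to 0.63) and, without that library, by 0.09. Elmo1 and Dock1, which form a complex that activates Rac, differed by -0.03 (95% interval -0.12 to 0.06) and -0.05 (95% interval -0.17 to 0.08).

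Without old library 6, Mertk and Stab1 were called higher as well. The calls of Axl (0.66), Pros1 (0.68), Gas6 (0.22) and Megf10 (-0.19) were also made without it.

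The second comparison asked which genes change in symptomatic ALS mice. Axl, Mertk, Pros1, Stab1, Gulp1 and Dock1 rose in SOD1G93A mice, 6 of 10 genes beside 18.4% of the 14386 genes tested, and none was called lower, beside 15.5%. Over the edgeR fit, 1 gene, Tyro3, was lower at an unadjusted p under 0.05, and DESeq2 likewise called 0 of 10 lower after adjustment. Their log2 fold changes had a median of 0.46, and those of all genes tested a median of 0.0031. Past the study's threshold were 4 genes, Axl, Mertk, Pros1 and Stab1, beside 8.5% of genes upward and 1.2% downward. The same 6 genes had every SOD1G93A library above every control, which was so for 25.7% of genes.

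Axl had levels of 75.6, 68.8 and 70.2 CPM in the control libraries. In the SOD1G93A libraries it had 296, 177 and 275 CPM, well apart from the controls. The change was 3.49-fold (log2 1.80, SE 0.18, edgeR adjusted p = 2.74e-04). Mertk had 17.2, 28.1 and 28.5 CPM in controls and 90.8, 38.7 and 54.3 CPM in SOD1G93A mice, each above all controls. Its change was 2.49-fold (log2 1.31, SE 0.30, edgeR adjusted p = 0.0114), and it passed the test without each library in turn, at log2 values of 0.92 to 1.56.

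Tyro3 had levels of 102, 92.9 and 106 CPM in controls. In SOD1G93A mice it had 65.8, 85.2 and 92.5 CPM, so the groups did not overlap, with the highest SOD1G93A library close to the lowest control. Such separation downward was found for 24.7% of genes tested. The log2 difference of -0.31 (SE 0.13, 95% interval -0.60 to -0.02) was not called (edgeR adjusted p = 0.0931), whereas a single fit of all 22 libraries called it (-0.34, adjusted p = 0.0318).

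Of the ligands, Pros1 had 25.2, 25.6 and 27.0 CPM in controls and 124, 73.9 and 107 CPM in SOD1G93A mice. This was the largest fold change of the 10 genes, 3.92-fold (log2 1.97, SE 0.17, edgeR adjusted p = 1.94e-04). Gas6 had 179, 177 and 178 CPM in controls and 249, 175.5 and 227 CPM in SOD1G93A mice. One SOD1G93A library was thus below all controls, and the log2 difference of 0.29 (SE 0.13) was not called (edgeR adjusted p = 0.107). It was called without this library, SOD1G93A library 2 (0.42, adjusted p = 0.00123), and in the single fit of all libraries (0.26, adjusted p = 0.0180). The exons of Gas6 overlap those of Tmem255b on the opposite strand, which had a mean level of 1.27 CPM in controls and 1.37 CPM in SOD1G93A mice.

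Stab1 had 9.87, 9.68 and 8.76 CPM in controls. In SOD1G93A mice it had 41.4, 22.2 and 28.7 CPM, each above all controls, a 3.27-fold change (log2 1.71, SE 0.22, edgeR adjusted p = 9.23e-04). On the log2(FPKM + 1) scale its difference was 1.05 by limma (adjusted p = 0.0105). Exons of Nt5dc2 overlap Stab1 on the opposite strand, and Nt5dc2 itself rose from 2.46 to 5.71 CPM (log2 1.21, edgeR adjusted p = 0.0202). Whether reads were counted by strand is not given in the sources used here, so reads shared by these genes cannot be told apart.

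Gulp1 had 6.17, 8.67 and 7.30 CPM in controls and 13.5, 9.47 and 10.8 CPM in SOD1G93A mice, a log2 fold change of 0.61 (SE 0.20, edgeR adjusted p = 0.0406). Dock1 had 53.3, 57.8 and 57.4 CPM in controls and 73.5, 66.5 and 70.1 CPM in SOD1G93A mice (log2 0.32, SE 0.08, edgeR adjusted p = 0.0183). Each of these calls was lost when any library other than SOD1G93A library 2 was left out. The partner of Dock1, Elmo1, differed by -0.15 (95% interval -0.37 to 0.07), and Megf10 by -0.07 (95% interval -0.29 to 0.14), with overlapping groups for both.

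**Figure D2:**
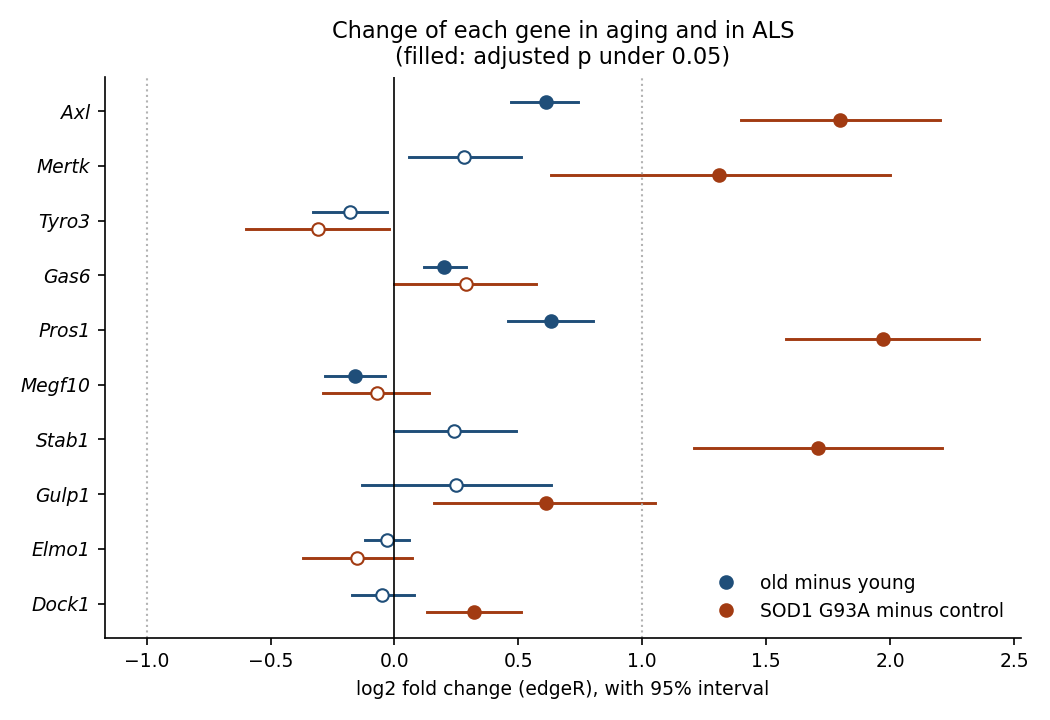
Log2 fold change (horizontal axis) of each of the 10 genes (vertical axis) for old minus young (blue, n = 8 against 8) and SOD1G93A minus control (brown, n = 3 against 3), with 95% intervals as lines. Filled points are called at an adjusted p under 0.05 and dotted lines mark a log2 fold change of -1 and 1, which Axl (1.80), Mertk (1.31), Pros1 (1.97) and Stab1 (1.71) exceeded in ALS.

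Individual SOD1G93A libraries varied more than controls for the genes that rose most. For 8 of the 10 genes SOD1G93A library 1 was the highest and library 2 the lowest, the exceptions being Tyro3 and Elmo1. The summed level of 10 microglial markers was 1751, 1148 and 1479 CPM in SOD1G93A libraries 1, 2 and 3, against 378 to 446 CPM in controls, and 6 of the 10 markers were called higher. That of 8 astrocyte markers was 11445 to 18110 CPM against 5824 to 6303 CPM, with 6 called higher, and without Gfap, the intermediate filament of reactive astrocytes, it was 5335 to 6881 CPM against 4171 to 4428 CPM. Neuronal markers summed to 2757 to 4491 CPM against 6472 to 6764 CPM, with 5 of 7 called lower and 1, Gap43, called higher (log2 0.35, edgeR adjusted p = 0.0281). Total counts followed the same order, with 11872431, 9675610 and 10926373 in libraries 1, 2 and 3. The part of these shifts in the changes of Axl, Mertk, Tyro3, Pros1 and Stab1 was not tested. In bulk tissue, fewer cells of a type and less RNA per cell cannot be told apart.

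For aging, the microglial markers summed to 506 to 729 CPM in old against 357 to 399 CPM in young mice, and 7 of 10 were called higher. The lowest old value was that of library 6, which also had the lowest Axl level of the old group. Astrocyte markers summed to 7080 to 7773 CPM against 6223 to 6816 CPM, with 3 called higher and 2 lower. Without Gfap (log2 0.69, edgeR adjusted p = 1.31e-06) the other 7 summed to 4030 to 5081 CPM in old and 4433 to 5151 CPM in young mice, which overlapped. Beside Stab1, which is known from border macrophages, 8 markers of these cells summed to 3.50 to 7.73 CPM in old and 2.26 to 5.69 CPM in young mice, and to 8.46 to 18.5 CPM in SOD1G93A and 1.84 to 3.80 CPM in control mice, where 2 of 4 tested were called higher. Ms4a7 alone had a mean of 1.82 CPM in old and 0.0847 CPM in young mice. Its means were 7.33 CPM in SOD1G93A and 0.0561 CPM in control mice. In old mice the means of Cd163, F13a1, Pf4 and Cbr2 were lower than in young mice, and those of Mrc1, Lyve1 and Clec10a higher. In SOD1G93A mice the mean of each of the 8 markers was above that of controls. In aging none of the 8 markers reached the counts needed for the test, and the part of these markers in the changes was not tested. Monocyte and neutrophil markers summed to at most 5.03 CPM, and T and B cell markers to at most 2.67 CPM, in any library.

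The experiments were then compared with each other by an interaction term in 1 edgeR fit of all 22 libraries. The change in ALS exceeded the change in aging for 5 of the 10 genes, beside 11.6% of the 14502 genes tested, and was below it for 0 of 10, beside 14.2%. The differences were 1.44 for Stab1 (SE 0.23, adjusted p = 8.22e-05), 1.31 for Pros1 (SE 0.17, adjusted p = 1.35e-05) and 1.17 for Axl (SE 0.16, adjusted p = 1.74e-05). Mertk, with 1.01 (SE 0.27, adjusted p = 0.00755), and Dock1, with 0.34 (SE 0.11, adjusted p = 0.0243), passed as well. Without SOD1G93A library 1 the term was 0.61 for Mertk (adjusted p = 0.0786) and 0.31 for Dock1 (adjusted p = 0.0783), and without control library 1 that of Dock1 was 0.30 (adjusted p = 0.0756). For Gas6 the term was 0.06 (95% interval -0.15 to 0.27), for Tyro3 -0.16 (95% interval -0.46 to 0.15), for Megf10 0.06 (95% interval -0.16 to 0.28), for Gulp1 0.33 (95% interval -0.30 to 0.96) and for Elmo1 -0.15 (95% interval -0.33 to 0.04).

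The balance of receptors and of ligands within a library was examined as the difference in log2 CPM of 2 genes, in which library scaling cancels and which is compared between groups only, since the genes differ in length. Axl minus Tyro3 was 0.65 ± 0.14 in old and -0.13 ± 0.12 in young mice (SD, n = 8), with ranges of 0.43 to 0.93 and -0.31 to 0.06. The groups did not overlap, and the difference of 0.78 had an exact two-sided permutation p of 0.000155, the smallest that 8 against 8 can give (adjusted p = 0.00093 over 6 tests). Axl minus Mertk was 2.5 ± 0.26 in old and 2.16 ± 0.23 in young mice, a difference of 0.34 (exact permutation p = 0.0191, adjusted p = 0.0382), with 4 of 8 old libraries above every young one. On log2(FPKM + 1) values this difference was 0.33 and no longer passed (exact permutation, adjusted p = 0.0566). Gas6 minus Pros1 fell, from 2.72 ± 0.14 to 2.30 ± 0.17, a difference of -0.42 (exact permutation p = 0.000622, adjusted p = 0.00187).

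In ALS the same quantities had differences of 2.09 for Axl minus Tyro3 (1.60 ± 0.56 against -0.49 ± 0.09, SD, n = 3), 0.51 for Axl minus Mertk (2.08 ± 0.33 against 1.57 ± 0.48) and -1.66 for Gas6 minus Pros1 (1.11 ± 0.12 against 2.77 ± 0.06). Axl minus Tyro3 was above every control in 3 of 3 SOD1G93A libraries, and Gas6 minus Pros1 was below every control in 3 of 3. With 3 against 3 the exact permutation test cannot go below p = 0.1, which both reached (adjusted p = 0.12), and Axl minus Mertk gave p = 0.2 with overlapping groups.

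**Figure D3:**
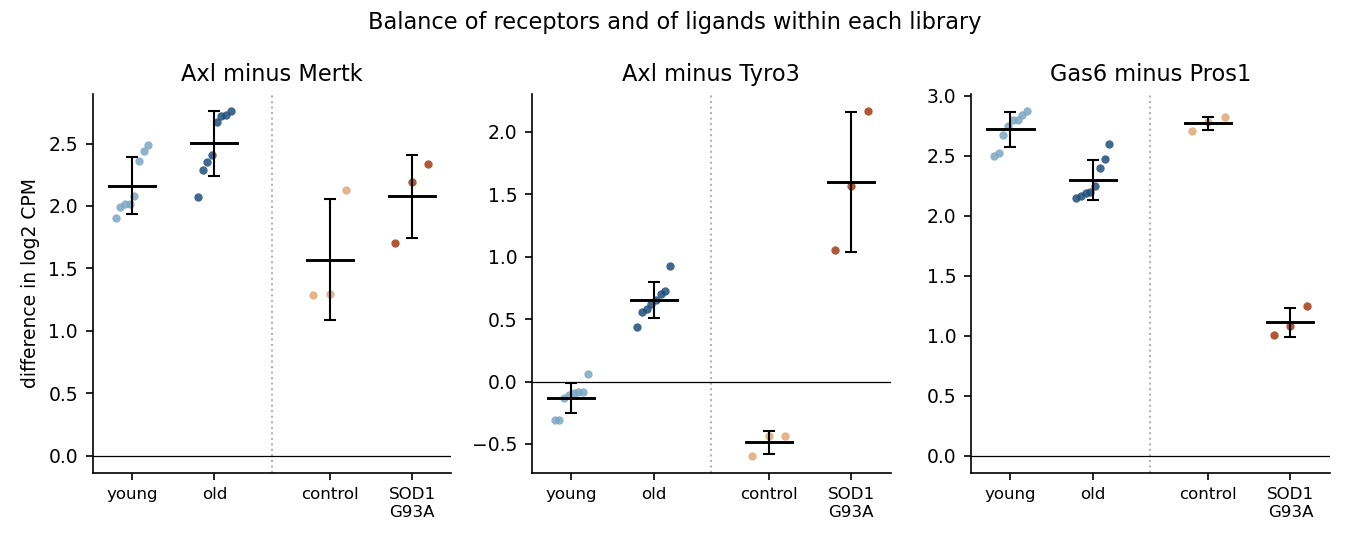
Difference in log2 CPM (vertical axis) between Axl and Mertk, Axl and Tyro3, and Gas6 and Pros1 in each library of the 4 groups (horizontal axis), with means as lines and ± SD as bars (n = 8 young, 8 old, 3 control, 3 SOD1G93A). Axl minus Tyro3 is higher in all old libraries than in any young one, and in all SOD1G93A libraries than in any control. Gas6 minus Pros1 falls from a mean of 2.77 in controls to 1.11 in SOD1G93A mice.

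Genes with the profile closest to each receptor were identified by the root mean square difference of mean-centered log2 CPM, as a description of these libraries. Over the 16 aging libraries those closest to Axl were Csf1r (0.0744), the receptor for colony-stimulating factor that maintains microglia, and the lysosomal proteases Ctsb (0.0754) and Ctsl (0.0815), where Axl itself varied by 0.329 about its mean. Closest to Tyro3, which varied by 0.185, were Dip2a (0.0756), Exog (0.0821) and Itm2a (0.0858). For Mertk, which varied by 0.253, they were Nos3 (0.144), Fkbp5 (0.145) and Fastkd5 (0.152). Over the 6 ALS libraries Axl, varying by 0.914, was closest to Ppp1r18 (0.0563), Clu (0.0576) and Cnn3 (0.0647). Mertk, varying by 0.762, was closest to Plce1 (0.12), Nfatc1 (0.135) and Adap2 (0.153), and Tyro3, varying by 0.225, to Gal3st1 (0.0393), Ripor2 (0.0396) and Ccdc85b (0.0448).

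The other genes of apoptotic-cell clearance were taken from a list of 77 genes in 7 roles, none of them among the 10. In aging 24 of 65 tested genes were called higher and 5 lower, beside 13.5% and 12.9% of all genes, with a median log2 fold change of 0.03. In ALS 31 of 71 were called higher and 8 lower, beside 18.4% and 15.5%, with a median of 0.39. Past the study's threshold upward were 12 of 65 genes in aging, beside 2.18% of all genes, and 23 of 71 in ALS, beside 8.5%. None was past it downward in either, beside 0.044% of all genes in aging and 1.2% in ALS.

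By role, ligands and bridging molecules had 5 of 9 genes higher in aging and 6 of 9 in ALS, with none lower. The smallest adjusted p-values among all 65 genes in aging belonged to the complement subunits C1qb (log2 1.85), C1qa (2.09) and C1qc (1.89), which opsonize debris, to Lgals3 (4.36), a lectin that also serves as a Mertk ligand, and to the lipid receptor Trem2 (2.37). In ALS those were Trem2 (3.77), Dock2 (2.81), a Rac activator of blood cells and microglia in the family of Dock1, C1qa (3.59), Lgals3 (4.76) and C1qc (3.45). Dock2 itself was at 4.76 to 6.07 CPM in controls and 25.3 to 42.3 CPM in SOD1G93A mice, and in aging had a log2 fold change of 1.32, where Dock1 had -0.05.

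Among other recognition receptors 3 of 11 tested genes were higher and 1 lower in aging, and 8 of 15 higher and 1 lower in ALS. Engulfment signaling genes, the group closest to Elmo1 and Dock1, had 4 higher and 3 lower of 13 in aging. In ALS they had 3 higher and 2 lower of 13. Beside all counts by role stand the shares over all genes, 13.5% higher and 12.9% lower in aging and 18.4% and 15.5% in ALS. Find-me and don't-eat-me signals had 3 of 7 higher in aging and 4 of 8 higher with 2 lower in ALS, and corpse digestion and efflux had 6 of 13 higher in aging and 5 of 13 higher with 1 lower in ALS. Of the genes for phosphatidylserine exposure, 1 of 7 was higher in each comparison, with 1 lower in aging and 2 lower in ALS. In the set of TAM partners and regulators 2 of 5 tested were higher in aging and 4 of 6 in ALS. Those not called in ALS were Socs1 (log2 0.59, edgeR adjusted p = 0.323) and Ggcx (log2 0.0, edgeR adjusted p = 0.982). Chosen after their values were seen, Adam17, a protease that sheds Mertk, had 27.2 to 29.7 CPM in controls and 44.7 to 63.7 CPM in SOD1G93A mice (log2 0.87, SE 0.14, edgeR adjusted p = 0.00260), and Socs3, a brake on cytokine signaling downstream of TAM receptors, had 0.384 to 1.99 CPM and 16.1 to 34.7 CPM (log2 4.5, SE 0.44, edgeR adjusted p = 2.74e-04). The 5 genes lower in aging were Dock5 (-0.50), Xkr6 (-0.35), Pear1 (-0.34), Trio (-0.25) and Dock4 (-0.24), also named after their values were seen.

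**Figure D4:**
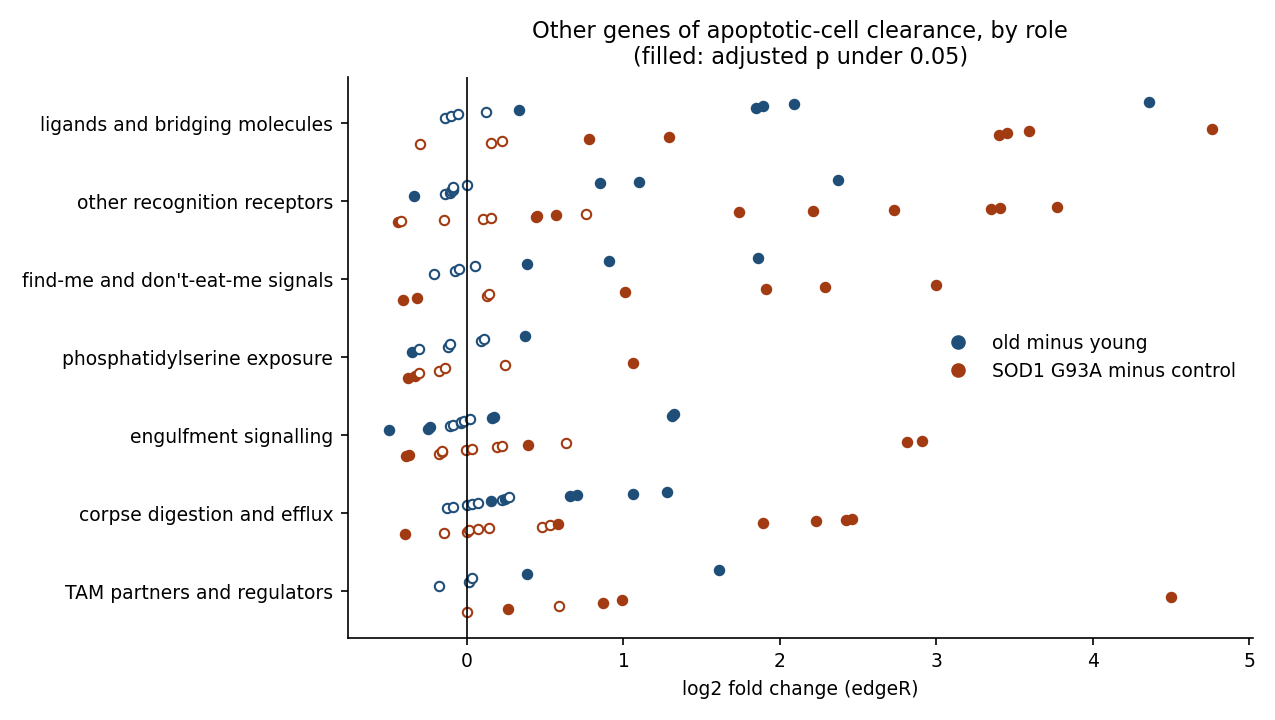
Log2 fold change (horizontal axis) of the tested genes of the clearance list by role (vertical axis), for old minus young (blue, 65 genes) and SOD1G93A minus control (brown, 71 genes). Each point is 1 gene and filled points are called at an adjusted p under 0.05, with 24 higher and 5 lower in aging and 31 higher and 8 lower in ALS.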

How the data were processed

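RNA-seq of whole spinal cord was analyzed from 8 young, 8 old, 3 control and 3 SOD1G93A mice. The authors aligned reads to mm10 with STAR and estimated counts per gene with RSEM (Ensembl annotation). SAMtools 1.3 and RSEM are named in the submitters' processing notes. The authors deposited expected counts, not normalized and already whole numbers, and a second table of log2 values of FPKM plus 1, used here for levels per length and for an alternative. Columns give the group of a library and not its replicate number, so libraries were numbered by column order within a group. No pair of libraries of a group agreed within sampling noise (chi-square per degree of freedom at least 2.56, where noise alone gives about 1). Per the study's methods, each library came from 1 mouse.

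Gene symbols and positions were from GENCODE M21 (GRCm38), which held 21842 of 21995 genes. Promoter sequences of RefSeq (GRCm38.p6) were matched by symbol for 9 of the 10 genes, all but Megf10. Genes were kept in each comparison by filterByExpr (minimum count 10, minimum total 15), TMM factors scaled the libraries, and p-values of edgeR's quasi-likelihood test were adjusted by Benjamini-Hochberg across every tested gene. Differences of 2 genes (log2 CPM, prior count 2) went through a two-sided exact permutation test. All 10 genes passed the filter in each comparison. Software was edgeR 4.0.16, DESeq2 1.42.0 and limma 3.58.1 under R 4.3.3, with scipy 1.17.1, pandas 2.3.3 and matplotlib 3.10.9 under Python 3.11.15. A floor of 3 counts covers counting error only.

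Named genes were the 10 genes, the 5 clearance genes with the smallest adjusted p in each comparison together with any past the study threshold downward, and the 3 genes closest to each receptor. Adam17, Socs3, Socs1, Ggcx, Dock5, Xkr6, Pear1, Trio, Dock4, Gfap, Gap43 and the border macrophage markers are not covered by that rule and were picked with their values already seen. Tmem255b and Nt5dc2 are named for their overlap with Gas6 and Stab1. The genes and lists were chosen with earlier results of these data known, and the clearance and marker lists are not independent evidence of direction.

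On simulated counts for the aging design, edgeR recovered 83% of 100 genes changed by 0.6 (log2) and 100% of 99 changed by 1.5, with 5.70% of calls on unchanged genes (13462 genes). For the ALS design it recovered 47% and 91.9% of these sizes, with 5.48% of calls on unchanged genes (13980 genes), and for the interaction 90.5% of 200 genes changed by 1.5 (14370 genes). Alternatives were DESeq2, RLE factors, no filter, 10 counts in every library, 1 fit of all libraries, limma on log2(FPKM + 1), a prior count of 0.5, the study threshold and leaving out each library. Leaving old library 6 out of the aging ratios was added after the data were seen.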

Additional observations from a re-analysis of the deposited data

Results flagged for a closer look

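In the group of old mice, 3 of the 10 genes had 1 library far from the others, by Dixon's ratio of gap to range at its 95% critical value. Mertk was at 33.3 CPM in old library 2, Gulp1 at 10.3 CPM and Elmo1 at 174.6 CPM in old library 6. Chance alone flags about 1 in 20 groups, and 26 groups of values were examined here.

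The change in ALS was larger than that in aging, by the interaction term of edgeR, for Axl (1.17 on the log2 scale, adjusted p = 1.74e-05), Mertk (1.01, adjusted p = 0.00755), Pros1 (1.31, adjusted p = 1.35e-05), Stab1 (1.44, adjusted p = 8.22e-05) and Dock1 (0.34, adjusted p = 0.0243). All 3 SOD1G93A libraries were above all 3 controls for each of these genes, which was so for 25.7% of the 14386 genes tested in ALS. Such separation does not bear on the difference from aging. Library kit, age, depth and the sexes used differ between the experiments along with the comparison, and their part cannot be told apart.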

How the results depend on the processing

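Axl, Gas6 and Pros1 in aging and Axl, Mertk, Pros1 and Stab1 in ALS kept their direction and their call under DESeq2, RLE factors, no filter, 10 counts in every library, 1 fit of all libraries, limma on log2(FPKM + 1) and each library left out. Under limma 0 of the 10 genes were lower in aging, and with a log2 fold change beyond 1 asked for as well 0 were higher and 0 lower. In ALS 1 of 10, Tyro3, was lower in the fit of all libraries, where Gulp1 was not called (0.58, adjusted p = 0.0592). The cause was not tested. With 1 library left out, the genes higher in aging numbered 3 to 5 and those lower 0 to 2. In ALS the genes higher numbered 4 to 7 and those lower 0. Clearance genes lower then numbered 2 to 5 in aging and 3 to 10 in ALS, and genes with a larger change in ALS numbered 3 to 5. The shares of all genes called in these fits are not given here. The interaction terms of Gas6 and Megf10, neither of which was called, turned to -0.04 and -0.02 without SOD1G93A library 1, and ranged up to 0.18 and 0.11 with other libraries left out. With adjustment over the 6 tests, the 3 differences in log2 CPM in aging kept direction and side of the threshold with a prior count of 0.5 and without old library 6 (0.35, 0.78 and -0.46). On log2(FPKM + 1) values Axl minus Mertk in aging lost its call (0.33, exact permutation, adjusted p = 0.0566; the cause was not tested), and Axl minus Tyro3 and Gas6 minus Pros1 kept theirs. With 3 against 3, exact tests cannot pass 0.05, so the ALS values say nothing on stability. No paired analysis was possible because the columns carry no replicate numbers.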
